A study of Mus musculus with 6 samples.

Results

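Genes of the primitive streak, early mesoderm, heart, vessels and blood were examined in undifferentiated mouse embryonic stem (ES) cells. The set was a list of 34 genes in 4 roles, 11 of the streak, 5 of posterior and somite mesoderm, 12 of the heart and 6 of vessels and blood. Members were the probe sets whose platform annotation gives 1 gene symbol that is on the list. This matched 33 of the 34 genes, each with 1 probe set, among 35557 probe sets and 19938 genes in all. T (Brachyury) was not analysed here. Of the 33, 31 passed the filter on dim probe sets, which asks that at least 3 of the 6 arrays lie above 3.78, the 30th percentile of all log2 values. Cdx4, with values of 2.45 to 2.72, and Mef2c, with values of 2.97 to 3.12, did not pass it and were not tested.

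The series compared the parental ES cell line w9.5, labelled WT, with Cl34, a Hira-/- line derived from ES cells, with 3 Affymetrix Mouse Gene 1.0 ST arrays of each. The HIRA protein is a chaperone for the histone variant H3.3 and places it into chromatin independently of DNA synthesis. Both lines were grown in the same serum medium with ESGRO, a leukaemia inhibitory factor supplement, and neither had been differentiated. Cl34 stands for 1 clone, so loss of Hira and any other difference between these lines cannot be told apart. Confluence varied at harvest per the design text, without a label that gives it for an array. The labels call the arrays of a line biological replicates and do not say whether they came from separate cultures, so p-values reflect the spread among these samples only, and part of it may be technical. All values are deposited log2 values, differences are Hira-null minus WT on the log2 scale, and values of different genes are not compared, since probe sets respond differently.

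The labelled cell type was checked first. All 10 listed ES cell markers passed the filter, among them Pou5f1 at 10.91 to 11.58 and Nanog at 10.70 to 11.12. Their summed linear signal was 16369 to 17315 in the WT arrays and 14624 to 19683 in Hira-null arrays, lowest in Hira-null replicate 3. The median deviation from the gene means in that array was -0.31. Nanog, Sox2, Zfp42, Klf2, Tdgf1 and Utf1 were lowest in it, Esrrb was highest, and Pou5f1, Klf4 and Dppa5a were neither. Klf4 was higher (0.41) and Klf2 lower (-0.52) in the Hira-null line without overlap, and neither was called. The Hira probe set read 7.49, 7.86 and 7.83 in the WT arrays and 7.40, 7.05 and 6.81 in those of the Hira-null line, without overlap (difference -0.64, limma adjusted p = 0.352). The part of Hira that was deleted is not given in the labels, so what this probe set checks is not known. Of 25142 probe sets kept, 1 was called between the lines by limma at an adjusted p under 0.05, with 41 called without Hira-null replicate 2 and 0 without any other single array. Hira-null replicate 3 stood apart from the other arrays. It was the highest array for 24.6% and the lowest for 26.0% of 15199 genes, so differences over 0.1 in size that it moved by over 1.5 times are given with and without it.

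The primitive streak forms where epiblast cells leave the epithelium during gastrulation. WNT, NODAL and FGF signals induce T-box and homeobox factors there, and the emerging mesoderm gives rise to somites, heart, endothelium and blood. Undifferentiated ES cells correspond to a stage before this, and their cultures can contain cells that have started to differentiate. In such a bulk sample, fewer cells of a type and less RNA per cell cannot be told apart.

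Promoter sequences are shown for 3 of the 4 members whose lines did not overlap, the actin gene Actc1, the myosin light chain gene Myl4 and the blood factor gene Tal1. They are RefSeq windows on GRCm38.p6, of 250 bases before and 50 bases after the start site, written 5′ to 3′ along the gene. Windows matched 26 of the 33 members by symbol, as 31 windows. Capitals mark matches on either strand to a CArG box, the DNA site of serum response factor, to TATAAA or to AGATAA, a site of the kind that GATA factors bind. A MEF2 site, bound by muscle regulators of the MEF2 family, was searched too and had 0 matches in the 31 windows, against 3.19% of 32851 windows of all genes.
Actc1 promoter, chr2:114052826-114053125, minus strand: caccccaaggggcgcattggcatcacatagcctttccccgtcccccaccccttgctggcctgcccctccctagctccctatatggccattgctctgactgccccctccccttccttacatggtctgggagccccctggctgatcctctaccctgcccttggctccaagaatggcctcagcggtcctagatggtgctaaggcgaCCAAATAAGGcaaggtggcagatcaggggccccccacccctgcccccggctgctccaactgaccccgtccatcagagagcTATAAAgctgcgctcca
Myl4 promoter, chr11:104550413-104550712, plus strand: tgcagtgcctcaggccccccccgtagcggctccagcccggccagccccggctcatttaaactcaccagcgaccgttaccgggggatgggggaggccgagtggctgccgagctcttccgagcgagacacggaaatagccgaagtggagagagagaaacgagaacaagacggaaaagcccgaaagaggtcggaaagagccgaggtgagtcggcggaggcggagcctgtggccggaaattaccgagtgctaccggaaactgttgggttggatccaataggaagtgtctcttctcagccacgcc
Tal1 promoter, chr4:115056176-115056475, plus strand: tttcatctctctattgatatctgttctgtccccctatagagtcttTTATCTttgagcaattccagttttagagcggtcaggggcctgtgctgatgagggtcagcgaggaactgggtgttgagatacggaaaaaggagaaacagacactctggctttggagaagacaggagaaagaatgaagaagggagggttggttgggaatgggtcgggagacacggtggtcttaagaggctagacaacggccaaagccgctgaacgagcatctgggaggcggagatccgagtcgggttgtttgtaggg

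The Actc1 window holds a CArG box at bases -47 to -38 and TATAAA at bases 34 to 39 after the listed start. The Myl4 window holds none of these letters, and the Tal1 window, the upstream of 2 listed for that gene, holds AGATAA on the minus strand at bases -205 to -200. A CArG box was present in 5 of the 31 member windows (16.1%), against 1.63% of all windows. TATAAA was present in 6 (19.4%, against 13.6% of all windows) and AGATAA in 5 (16.1%, against 11.2%). These are matches to letters and do not show that a factor binds. The 5 CArG boxes are shown with 10 bases on each side. Of these, 3 lie at contractile genes and 2 at the neighbouring streak genes Mesp1 and Mesp2. A link between the boxes and the values of these genes was not tested.
Actc1, chr2:114052903-114052932, minus strand: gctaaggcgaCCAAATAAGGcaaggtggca
Myl7, chr11:5898824-5898853, minus strand: ccattcctctCCTTATTTGGgcctctgggt
Myl3, chr9:110763583-110763612, plus strand: gagccaatgcCCTTTTATGGccctgtccct
Mesp1, chr7:79793709-79793738, minus strand: tactgaggccCCAAATATGGtccaggtgga
Mesp2, chr7:79810500-79810529, plus strand: caggcatagcCCATTAAAGGctaatgatga

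CpG dinucleotides were counted in the same windows, as a description with no test. The median was 24 in the 7 windows of streak genes, 15 in the 6 of vessel and blood genes, 7 in the 3 of mesoderm genes and 5 in the 15 of heart genes, beside 7 in all windows. The ranges overlapped, with 4 to 45 for streak, 2 to 35 for vessel and blood, 4 to 8 for mesoderm and 1 to 37 for heart genes. Within the heart role the 8 windows of contractile genes had a median of 3.5 and the 7 of regulators a median of 10.

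No member passed the test between the lines. With limma and Benjamini-Hochberg adjustment over all 25142 probe sets kept, 0 of 31 members were called (lowest adjusted p = 0.348), where 0.00398% of all probe sets were called. At an unadjusted p under 0.05 there were 2 of 31 members (6.45%), Cdx1 with higher and Myl4 with lower values in Hira-null arrays, where 10.1% of all probe sets reached that level, 4.06% with higher and 6.06% with lower values. The lines did not overlap for 4 of 31 members (12.9%), where 15.3% of all probe sets did not overlap. Cdx1 and Tal1 were higher, 2 of 31 members beside 7.09% of all probe sets, and Myl4 and Actc1 were lower, 2 of 31 beside 8.17%. Members are counted as genes, and over the 15199 genes tested the shares were 10.5% at an unadjusted p under 0.05 and 17.4% without overlap. Both member shares lie below those of all probe sets and of all genes in this fit, so the counts are not a result about these genes. By sign, 12 members had higher values, 18 had lower values and Evx1 stood at 0.00, with a median of -0.09, beside -0.01 over all genes tested.

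The precision bounds how large a difference in the array values could be, which is not a bound on the RNA itself. For 27 of the 31 members the 95% interval of the difference from limma lay between -1 and 1, that is, within a 2-fold change in either direction. The same held for 13386 of the 15199 genes tested, so the count is not a result about these genes. Many members were dim, and 14 passed a stricter filter at the 50th percentile of all values (4.99). The 4 members whose interval reached beyond -1 or 1 were Fgf17 (-1.35 to 0.93), Myl4 (-1.40 to -0.24), Actc1 (-1.13 to 0.10) and Tek (-0.35 to 1.19). A test that a member missed does not show that its level was equal in the lines.

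**Figure D1:**
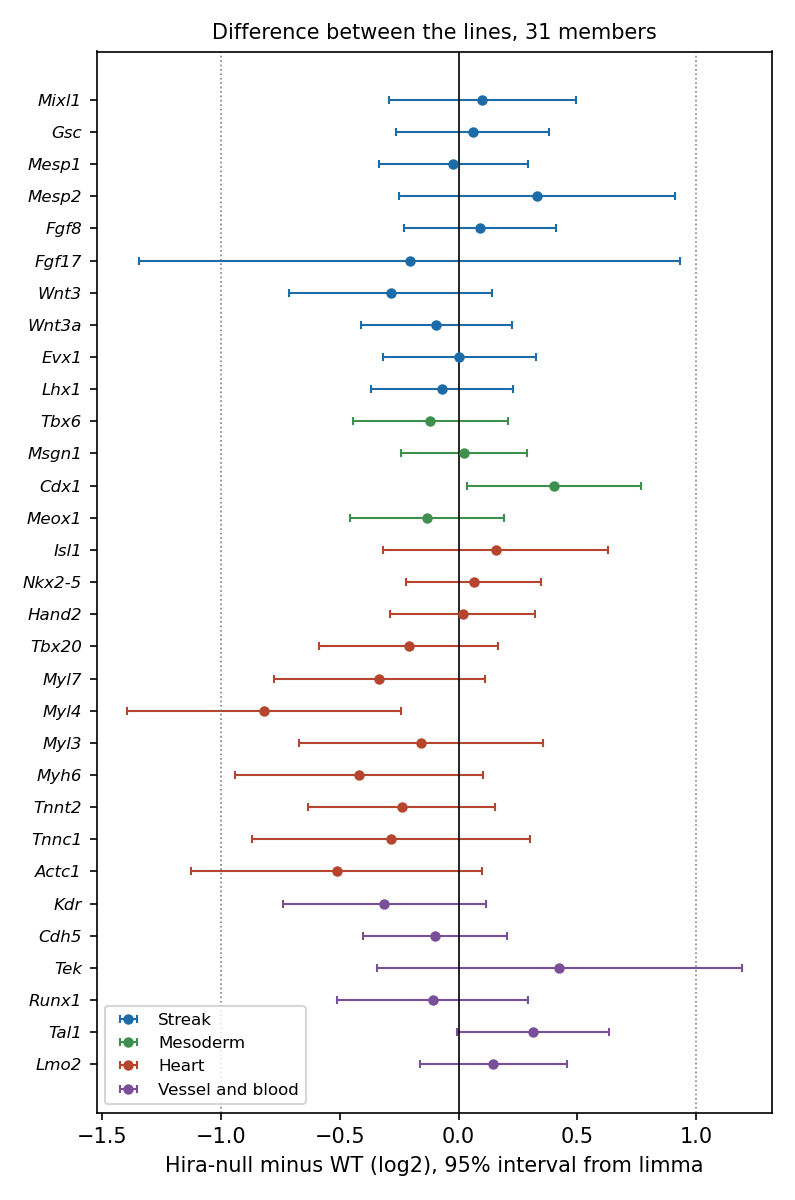
Difference between the lines for the 31 members that passed the filter, Hira-null minus WT on the log2 scale (x axis), 1 gene per line and coloured by role, with points for the estimate and bars for the 95% interval from limma (n = 3 arrays per line). Most points lie near 0, Myl4 is farthest from it at -0.82, and the intervals of Cdx1 and Myl4 do not reach 0.

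Streak genes had the smallest median difference of the 4 roles in size, at -0.01 over 10 genes, with 4 higher, 5 lower and 0 of 10 called. None of the 10 had lines that did not overlap. Among the ligands, Wnt3, which is needed for streak formation, read 5.12, 4.99 and 4.58 in the WT arrays and 4.46, 4.57 and 4.80 in those of the Hira-null line. Its difference was -0.29 (SE 0.18, limma adjusted p = 0.670), and the value of Hira-null replicate 3 lay among those of WT. Wnt3 lies on chromosome 11, where the median of all 1351 genes tested was -0.24. With the median of the chromosome subtracted in each array, its difference was -0.06.

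Wnt3a, a ligand of the streak and tail bud that also lies on chromosome 11, read 4.65, 4.95 and 4.76 in the WT arrays and 4.63, 4.80 and 4.65 in those of the Hira-null line, and the lines overlapped (-0.09, SE 0.13). The ligand gene Fgf8, which streak cells need to migrate, lay between 5.91 and 6.20 on all 6 arrays. Fgf17, a close relative of Fgf8, read 6.63, 7.04 and 7.14 in the WT arrays and 7.29, 7.37 and 5.53 in those of the Hira-null line. Hira-null replicate 3 was thus the lowest array and the other Hira-null arrays were the highest. The difference of -0.21 (SE 0.48) became 0.39 without that replicate.

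Among the transcription factors of the streak, Mesp2 had the largest difference, and the others were at -0.07 to 0.10. Mesp1, Evx1 and Lhx1 lay close to the filter value of 3.78, and Mixl1 lay below the 50th percentile of all values, 4.99. A small difference in such dim probe sets does not show stable expression. Mixl1, a homeobox factor of streak mesendoderm, lay between 4.40 and 4.87, and Gsc, the goosecoid factor of the organizer, lay between 5.13 and 5.50. The 3 WT values of Gsc spanned 5.24 to 5.26. Evx1, of the posterior streak, and the LIM homeobox gene Lhx1 had differences of 0.00 and -0.07. Mesp1, which marks early cardiac mesoderm, lay between 3.98 and 4.26 (difference -0.02, SE 0.13).

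Mesp2, the neighbour of Mesp1 that acts in somite boundary formation, read 5.44, 5.33 and 5.27 in the WT arrays and 5.27, 5.53 and 6.23 in those of the Hira-null line. The highest value came from Hira-null replicate 3, and the other Hira-null arrays lay at the lower end of the WT range and just above it. The difference of 0.33 (SE 0.25, limma adjusted p = 0.735) was 0.05 without that replicate.

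**Figure D2:**
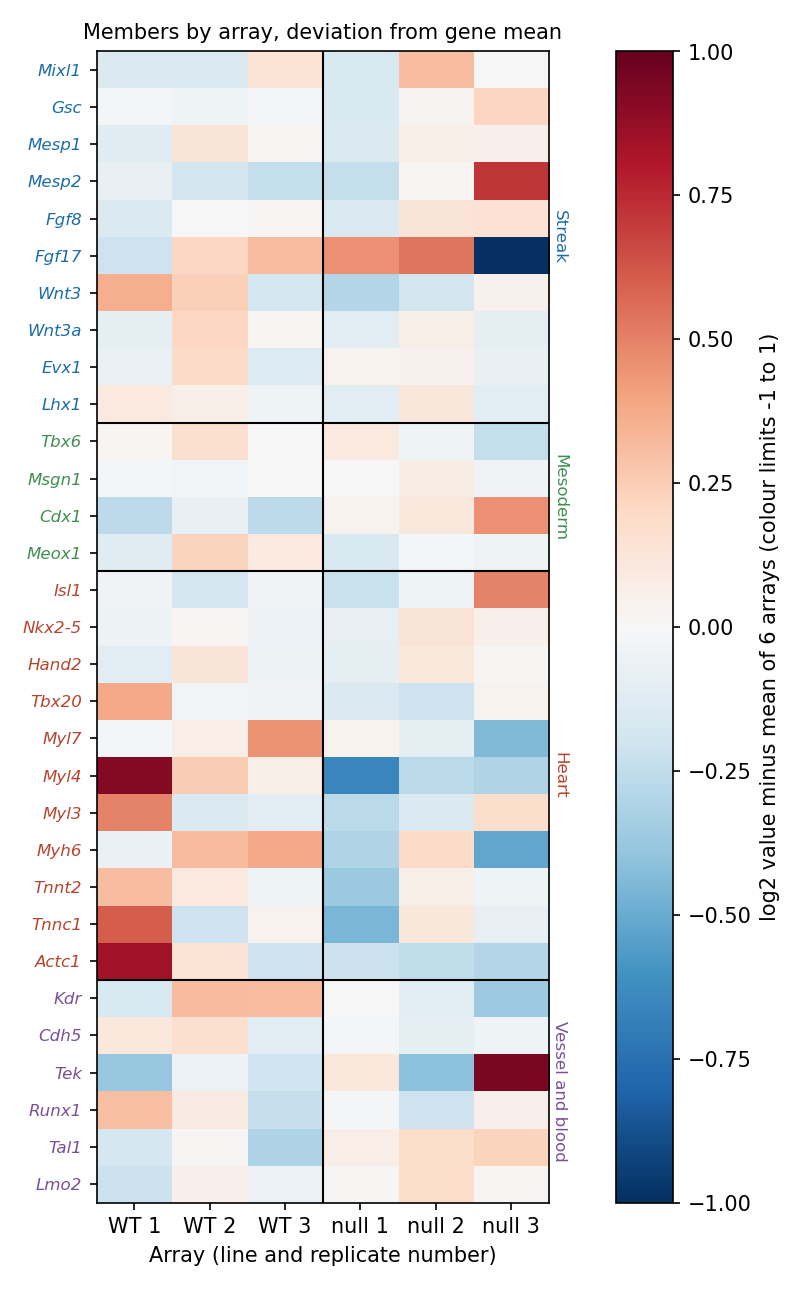
Log2 value of each array less the 6-array mean of that gene (colour, limited to -1 to 1), with the 31 members in rows by role and the arrays in columns. Red in WT replicate 1 gathers among heart contractile genes, the strongest colours of Hira-null replicate 3 are at Fgf17, Tek and Mesp2, and most streak and mesoderm rows are pale. The value of Fgf17 in that array lies beyond the colour limit.

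Posterior and somite mesoderm was represented by 4 tested genes, with 2 higher, 2 lower, a median of -0.05 and 0 called. Cdx1, a caudal-type homeobox factor that patterns the posterior axis and responds to WNT and retinoic acid, read 5.71, 5.90 and 5.71 in the WT arrays and 6.01, 6.08 and 6.43 in those of the Hira-null line. All 3 Hira-null arrays were above all WT arrays. The means were 5.77 ± 0.11 and 6.17 ± 0.23 (SD, n = 3), a difference of 0.40 (SE 0.15, 95% interval 0.03 to 0.77) or 1.32-fold, which did not pass (limma adjusted p = 0.451, from 0.370 to 0.771 over the alternatives). Without Hira-null replicate 3 the difference was 0.27.

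Meox1, a homeobox factor of somites, read 3.73, 4.07 and 3.95 in the WT arrays and 3.70, 3.84 and 3.81 in those of the Hira-null line, and the lines overlapped (-0.13, SE 0.14). Its values were close to the filter value of 3.78. Meox1 lies on chromosome 11, and with that chromosome's median subtracted its sign turned, to 0.09. Tbx6, the T-box factor of presomitic mesoderm, read 4.88, 5.02 and 4.86 in the WT arrays and 4.96, 4.82 and 4.62 in those of the Hira-null line (-0.12, SE 0.14), again with overlap, and the difference was -0.03 without Hira-null replicate 3. Msgn1, a presomitic basic helix-loop-helix factor, stayed between 5.45 and 5.56 on all 6 arrays.

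Heart genes had the median difference farthest from 0 of the 4 roles, at -0.24 over 11 genes, with 3 higher, 8 lower and 0 called. The median was -0.07 without WT replicate 1 and -0.12 without Hira-null replicate 1. The 8 lower genes were 7 of the contractile apparatus and the regulator Tbx20. Divided by product after their values were seen, the 7 contractile genes were all lower in the mean of the Hira-null arrays, from -0.82 to -0.16 with a median of -0.33. The 4 regulators tested were at -0.21 to 0.16 with a median of 0.04. Since this division followed the values, it carries no test.

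Myl4, the atrial essential myosin light chain that is also made in the embryonic heart, had the largest difference of all members. It read 7.15, 6.49 and 6.29 in the WT arrays and 5.58, 5.96 and 5.93 in those of the Hira-null line, so the lowest WT array was 0.33 above the highest Hira-null array. The means were 6.64 ± 0.45 and 5.82 ± 0.21 (SD, n = 3), a difference of -0.82 (SE 0.24) or 1.77-fold lower. It did not pass (limma adjusted p = 0.348, from 0.240 to 0.604 over the alternatives). Myl4 lies on chromosome 11, and its difference was -0.60 with that chromosome's median subtracted. Without WT replicate 1, its highest array, it was -0.57.

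Actc1, the alpha actin of heart muscle, which is also made in embryonic skeletal muscle, read 7.64, 6.93 and 6.59 in the WT arrays and 6.58, 6.54 and 6.50 in those of the Hira-null line. The WT values were spread widely and the Hira-null values narrowly, with SDs of 0.54 and 0.04, and the lines were separated by 0.01. The difference was -0.51 (SE 0.26, limma adjusted p = 0.574), and -0.22 without WT replicate 1. Myh6, the alpha myosin heavy chain of the heart, read 4.37, 4.76 and 4.82 in the WT arrays and 4.14, 4.63 and 3.92 in those of the Hira-null line. Its lines overlapped, and the difference was -0.42 (SE 0.22, limma adjusted p = 0.593). Hira-null replicate 3 was the lowest array, and without it the difference was -0.27.

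The other 4 contractile genes also overlapped between the lines. Myl7, the atrial regulatory myosin light chain on chromosome 11, was at -0.33 (SE 0.19), at -0.11 with that chromosome's median subtracted and at -0.19 without Hira-null replicate 3. The troponin genes Tnnc1 and Tnnt2 were at -0.28 and -0.24, and Myl3, the ventricular and slow muscle essential light chain, was at -0.16. Without WT replicate 1, Tnnc1 was at -0.05 and Myl3 at 0.05, and without Hira-null replicate 3 Myl3 was at -0.29.

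WT replicate 1 was the highest array for 5 of the 7 contractile genes, namely Myl4, Actc1, Myl3, Tnnt2 and Tnnc1, and for 18.6% of all genes tested. The median deviation of the 7 genes from their means was 0.50 in that array, 0.10 and 0.03 in the other WT arrays and -0.30, -0.09 and -0.30 in the Hira-null arrays. The summed signals of smooth muscle, fibroblast, skeletal muscle and endoderm markers were each highest in the same array, and that of neuroectoderm markers was highest in WT replicate 2. Such sums are carried by the brightest genes. In WT replicate 1 the median deviation was 0.62 for smooth muscle, 0.50 for fibroblast, 0.30 for endoderm and -0.055 for skeletal muscle markers that passed the filter. Among skeletal muscle markers only Acta1 (8.26) and Myh3 (5.23) were highest in that array, and the endoderm markers Sox17, Sox7 and Foxa2 were not. Of the fibroblast markers that passed, Col1a1, Col1a2, Vim and Pdgfrb were highest in it, and Thy1, Fn1, Col3a1 and Twist2 were not. Thy1 read 6.09 in that array, against 6.46 to 7.17 in the Hira-null arrays. Acta2, the smooth muscle alpha actin, read 9.57, 7.40 and 7.05 in the WT arrays and 6.0, 5.49 and 8.68 in those of the Hira-null line, and Tagln, the smooth muscle protein transgelin, read 8.94, 7.18 and 6.46 in the WT arrays and 6.32, 5.60 and 7.39 in those of the Hira-null line.

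Of the other smooth muscle markers, Cnn1 and Tpm2 were also highest in WT replicate 1 (6.03 and 6.41), Myh11 lay between 4.47 and 4.68 on all 6 arrays, and Actg2 was lowest in WT replicate 1, at 3.75 against 4.04 to 4.09 in the others. All 6 passed the filter. Their summed linear signal was 346 to 1441 in the WT arrays and 209 to 740 in Hira-null arrays, with the upper ends in WT replicate 1 and Hira-null replicate 3. Of the fibroblast and feeder markers, 8 of 12 measured passed the filter and Postn, Lum, Dcn and Lox did not, with a summed signal of 2340 to 3763 in the WT arrays and 2257 to 3106 in Hira-null arrays. Of 8 skeletal muscle markers 7 passed, with sums of 338 to 548 and 365 to 427, and Myf5 did not. The part of such cells in the contractile values was not tested.

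**Figure D3:**
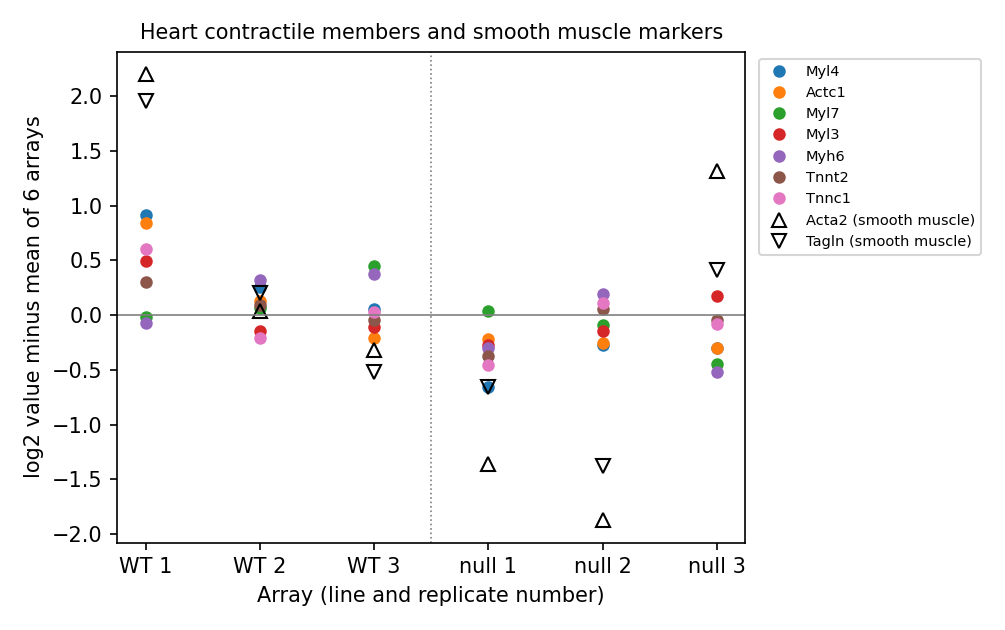
Log2 value less the 6-array mean of the gene (y axis) in each array (x axis) for the 7 heart contractile genes (filled circles) and the smooth muscle markers Acta2 and Tagln (open triangles). WT replicate 1 holds the highest points of Myl4, Actc1, Myl3, Tnnt2, Tnnc1, Acta2 and Tagln, while in Hira-null replicate 3 the triangles and the circle of Myl3 lie above 0 and the other 6 circles below it.

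Of the heart regulators, Isl1 and Tbx20 varied more between arrays than Nkx2-5 and Hand2. Isl1 and Tbx20 lay close to the filter value of 3.78, and a spread in such dim probe sets does not show a change in expression. Nkx2-5, a homeobox factor of cardiac progenitors, lay between 5.95 and 6.16, and Hand2, a helix-loop-helix factor of the right ventricle and second heart field, lay between 4.63 and 4.86. Tbx20, a T-box factor of the heart, lay between 3.76 and 4.34 (-0.21, SE 0.16). Isl1, which marks second heart field progenitors, read 3.99, 3.85 and 3.99 in the WT arrays and 3.80, 3.98 and 4.52 in those of the Hira-null line. The difference of 0.16 turned to -0.05 without Hira-null replicate 3, the highest array.

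Vessel and blood genes had a median difference of 0.02 over 6 genes, with 3 higher, 3 lower and 0 called. Tal1, a helix-loop-helix factor needed to form blood, read 5.16, 5.35 and 5.03 in the WT arrays and 5.40, 5.52 and 5.56 in those of the Hira-null line. All Hira-null arrays were above all WT arrays, by 0.05 at the nearest. The means were 5.18 ± 0.16 and 5.49 ± 0.08 (SD, n = 3), a difference of 0.31 (SE 0.13, 95% interval -0.01 to 0.63) or 1.24-fold, which did not pass (limma adjusted p = 0.502, from 0.380 to 0.841 over the alternatives). Lmo2, the LIM-domain partner of TAL1 in blood and endothelial precursors, was at 0.15 (SE 0.13), with overlap, and Runx1, the factor of definitive blood formation, at -0.11 (SE 0.17).

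Kdr, the VEGF receptor that marks the mesodermal precursors of endothelium and blood, read 4.15, 4.62 and 4.61 in the WT arrays and 4.31, 4.19 and 3.94 in those of the Hira-null line. The lowest array was Hira-null replicate 3 and WT replicate 1 lay among the Hira-null values (-0.31, SE 0.18, limma adjusted p = 0.634). Tek, the angiopoietin receptor TIE2 of endothelium, read 6.13, 6.45 and 6.31 in the WT arrays and 6.61, 6.10 and 7.45 in those of the Hira-null line. Its difference of 0.42 (SE 0.32, limma adjusted p = 0.746) was 0.06 without Hira-null replicate 3 and -0.03 without both that array and WT replicate 1. Cdh5, the endothelial VE-cadherin gene on chromosome 8, was at -0.10 (SE 0.13), with values close to the filter value of 3.78.

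**Figure D4:**
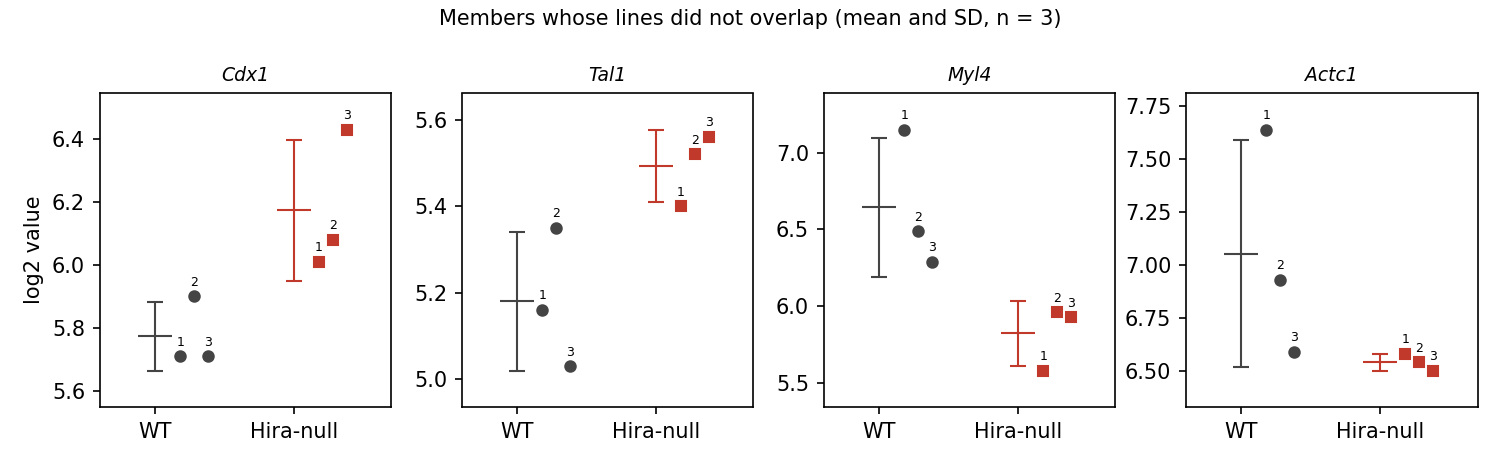
Log2 values (y axis) of the 4 members whose lines did not overlap, with circles for WT and squares for Hira-null arrays, numbered by replicate, and bars for mean and SD (n = 3). Cdx1 and Tal1 were higher and Myl4 and Actc1 lower in all 3 Hira-null arrays, with a gap of 0.01 between the lines for Actc1.

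**Figure D5:**
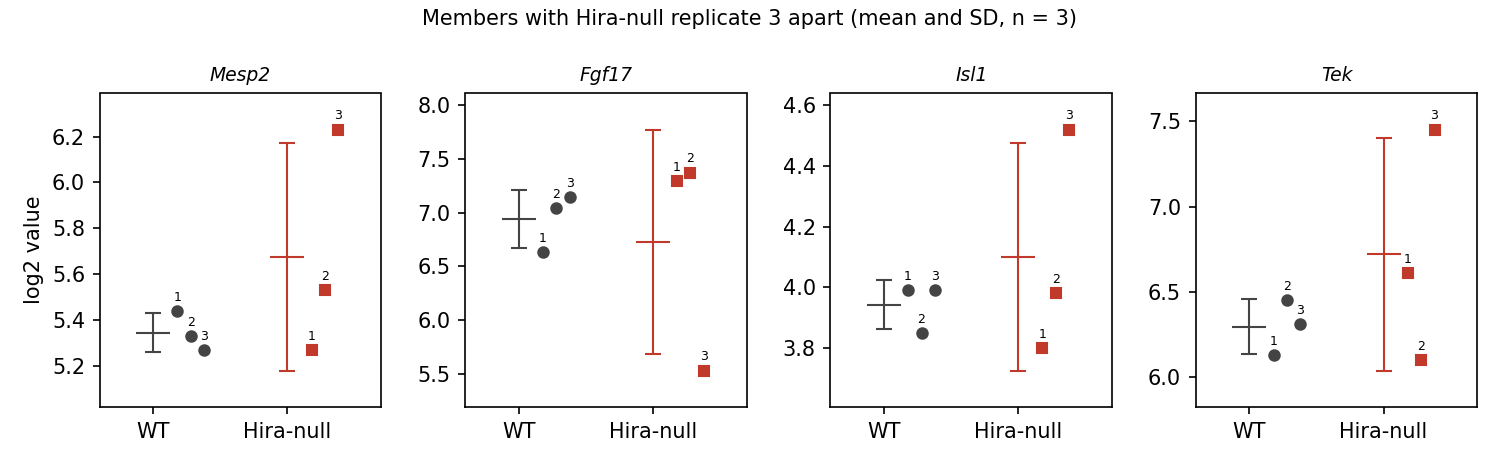
Log2 values (y axis) of 4 members in which Hira-null replicate 3 lies apart from the other Hira-null arrays, drawn in the same way. It is the highest array for Mesp2 (6.23), Isl1 (4.52) and Tek (7.45) and the lowest for Fgf17 (5.53).

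Chromosomes 8 and 11 hold 8 of the 31 tested members, and all genes tested on these chromosomes had median differences of -0.27 and -0.24. The 8 members (Wnt3, Wnt3a, Lhx1, Meox1, Myl7, Myl4, Hand2 and Cdh5) had a median of -0.12, with 7 lower, and Hand2 stood at 0.02. With the median of chromosome 8 subtracted in each array, Hand2 was at 0.26 (limma adjusted p = 0.635). The 23 members on other chromosomes had a median of 0.00, with 11 higher and 11 lower. The heart median was -0.23 without its members on these chromosomes and -0.21 with the chromosome medians subtracted.

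Further genes of the same pathways, 64 in all, gave 56 that passed the filter and 0 called (median -0.03). At an unadjusted p under 0.05 there were 0 with higher values, where the share over all probe sets was 4.06%, and 3 with lower values, where it was 6.06%. These were Dll3, a Notch ligand of the presomitic mesoderm, at -0.64 (limma adjusted p = 0.233), the ligand gene Wnt5a at -0.44 and Vwf, the endothelial von Willebrand factor gene, at -0.42. Dll3 read 5.20, 5.24 and 5.37 in the WT arrays and 4.76, 4.69 and 4.44 in those of the Hira-null line, without overlap, and its difference ran from -0.71 to -0.54 over the alternatives. Wnt5a read 4.43, 4.45 and 4.44 in the WT arrays and 4.10, 4.08 and 3.82 in those of the Hira-null line, also without overlap.

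By role, further streak genes numbered 12 tested, with 9 higher, 3 lower and a median of 0.09. Besides Wnt5a the smallest p belonged to the BMP antagonist gene Chrd (0.21) and to Axin2 (-0.21), a feedback target of WNT signalling on chromosome 11 that was at 0.01 with that chromosome's median subtracted. Further mesoderm genes numbered 11, with 5 higher, 6 lower and a median of -0.01, and Twist1 (-0.31) and the receptor gene Pdgfra (-0.22) followed Dll3. Further heart genes numbered 14, with 4 higher, 10 lower and a median of -0.06. Those with the smallest p were Smyd1 (-0.41), a methyltransferase of heart and skeletal muscle, and the troponin I genes Tnni3 (-0.29) and Tnni1 (-0.27). Further vessel and blood genes numbered 19, with 7 higher, 11 lower and a median of -0.04. After Vwf came the endoglin gene Eng (0.52, and 0.23 without Hira-null replicate 3) and Sox17 (-0.23), an endothelial and endoderm factor.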

How the data were processed

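Total RNA of 6 ES cell samples, 3 WT and 3 Hira-null, was hybridised to Affymetrix Mouse Gene 1.0 ST arrays. The authors deposited log2 expression values per probe set, and GCRMA, a background correction and normalization method, is named in the submitters' processing notes with no version. The genome build and annotation behind them: not given in the sources used here. Array medians were 4.93 to 5.02, and the values were used as deposited. Such normalization hides a change shared by most genes, and the number of arrays limits the precision (median SE of members 0.16).

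Probe sets were named from the platform's gene table, updated by Entrez identifier through a GRCm38.p6 gene table: 21789 of 35557 carry 1 symbol, 1621 several and 12147 none. Hira-null minus WT was fitted over all 6 arrays with limma 3.58.1 in R 4.3.3 (lmFit and eBayes, two-sided, Benjamini-Hochberg over 25142 probe sets, threshold 0.05), tested on simulated data. Each gene is its brightest probe set. The members and lists were chosen with earlier results of these data known. Named with values in every array were members whose lines did not overlap or with unadjusted p under 0.05, and up to the 3 smallest p per role. Genes outside that rule were Fgf17 and Isl1, singled out for 1 array, and the smooth muscle markers Acta2 and Tagln, all chosen after their values were seen. Hira, Dll3 and Wnt5a, which are not members, were also given with values in every array. Up to 3 further genes per pathway list were named by p. Lists of endoderm and neuroectoderm markers were also summed: 568 to 792 in WT and 395 to 527 in Hira-null arrays for endoderm, and 398 to 494 and 263 to 476 for neuroectoderm. Promoter windows were scanned with Python 3.11.15. Alternatives covered the filter, normalization, moderation, array weights, the replicate block, arrays left out, probe sets per gene and chromosomes 8 and 11.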

Additional observations from a re-analysis of the deposited data

How the results depend on the processing

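No alternative called a member or a further pathway gene (0 in each). With fewer arrays, lines that do not overlap become commoner by construction: 11 of 31 members with WT replicate 1 and Hira-null replicate 3 left out, where 41% of all genes did. The count of probe sets called was 1, and became 2 with the stricter filter, 2 with median centring, 5 with arrayWeights, 0 with the replicate block, 0 with WT replicate 1 and Hira-null replicate 3 left out, and 0 to 41 when 1 array was left out, with 41 without Hira-null replicate 2. Members at an unadjusted p under 0.05 numbered 1 to 3 over all alternatives, of 14 to 33 members, where 7.12% to 12.6% of genes tested reached that level. Lines did not overlap for 4 of 14 members with the stricter filter (19.5% of genes tested). The count was 6 of 31 with chromosome medians subtracted (15.7%) and 10 of 31 without Hira-null replicate 1 (27.3%). Whether the share of members lay below that of all genes thus depended on the setting.

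The member median of -0.09 became 0.06 with the stricter filter, which kept 14 members, 0.00 without those on chromosomes 8 and 11 and 0.02 with the medians of these chromosomes subtracted, an alternative chosen after seeing the data. The mesoderm median became 0.21, 0.02 and 0.06 under these, and the vessel and blood median 0.31 with the stricter filter. These alternatives change which members are counted or shift those on chromosomes 8 and 11.

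Signs of single genes turned under some alternatives, among them Tek, at 0.42 with all arrays. With chromosome medians subtracted, Wnt3a was at 0.13, Lhx1 at 0.15, Meox1 at 0.09, Cdh5 at 0.14 and Axin2 at 0.01. With arrayWeights, Fgf17 was at 0.09 and Lhx1 at 0.01. With WT replicate 1 and Hira-null replicate 3 left out, Gsc was at -0.03, Fgf8 at -0.01, Fgf17 at 0.24, Isl1 at -0.03, Hand2 at -0.03 and Tek at -0.03. With 1 array left out, differences of genes that changed sign ran from -0.03 to 0.08 for Hand2, -0.29 to 0.05 for Myl3, -0.25 to 0.01 for Runx1, -0.09 to 0.05 for Mesp1, -0.03 to 0.21 for Mixl1, -0.01 to 0.05 for Msgn1, -0.03 to 0.15 for Gsc, -0.53 to 0.39 for Fgf17, -0.05 to 0.31 for Isl1.

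Replicate numbers did not pair the arrays. Deviations from the line means correlated at -0.34, 0.17 and -0.10 between arrays of the same number. The highest correlations were between WT replicate 1 and Hira-null replicate 3 (0.44) and between WT replicate 2 and Hira-null replicate 1 (0.36). What these arrays share was not tested. With the replicate block 0 members were called and 1 was at an unadjusted p under 0.05.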
